A study of Saccharomyces cerevisiae with 6 samples.

Results

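The genes of the yeast mating pathway were examined in 3 arrays labelled wild type and 3 arrays labelled as a deletion of YPR045C, both in BY4741, a haploid laboratory strain of mating type a. The 44 genes were taken from a list of named pathway members: receptors, G protein, kinases, regulators, a-factor genes and genes known to be induced by pheromone. Each of the 44 had 1 probe set on these Affymetrix arrays, so all were measured, among 5449 genes in all. The list was meant to hold no gene of chromosome X, but the R64 gene table places STE24 there, and it is therefore described apart. By role, 21 genes were signalling components or their regulators, 15 were pheromone-induced targets and 8 served the making and export of a-factor. Both strains were harvested during exponential growth in YPD, a rich medium, and the labels name no pheromone treatment, so the levels are those of growing cells. The labels number the arrays of each group from 1 to 3 and do not say whether they came from separate cultures or transformants, so a p-value here measures only array-to-array spread, part of which may be technical.

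In an a cell, α-factor from a partner of the opposite mating type binds the receptor Ste2, and the G protein then releases its βγ dimer from Gpa1. The signal runs through a kinase cascade, held on the scaffold Ste5, to the MAP kinases Fus3 and Kss1. These relieve the transcription factor Ste12 of its inhibitors Dig1 and Dig2. Ste12 then raises the expression of genes for cell adhesion, cell fusion and nuclear fusion, and of several components of the pathway itself.

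Levels are given as log2(normalized intensity + 16), and differences are those of deletion-labelled arrays minus those labelled wild type on that scale. Groups were compared with limma across all 5449 genes, and a gene is said to rise or fall where its adjusted p (Benjamini-Hochberg) lay under 0.05. Values after ± are SD between 3 arrays for levels and SE for differences. A background limit of 6.48 was taken from probe sets for fission yeast genes on the same arrays.

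The labels could not be borne out by the targeted gene. THP3, the name of YPR045C, stood at 9.51, 9.43 and 8.94 in wild-type-labelled arrays against 9.93, 9.82 and 9.10 in deletion-labelled ones. It was not lower where it should be missing (difference 0.33 ± 0.25, adjusted p = 0.39, and 0.015 to 0.73 over 18 alternatives). In every array THP3 stood above the background limit of 6.48, so its signal was absent from neither group. A probe set that its identifier marks as a reporter, and that the annotation used here ties to no gene, stood at 14.11 ± 0.03 in wild-type-labelled arrays and 5.41 ± 0.09 in deletion-labelled ones, below the background limit. Every direction below therefore rests on the labels: were they exchanged, each rise would be a fall of the same size and rank. Genes of chromosome X stood 0.78 to 0.80 above the median of the other genes in wild-type-labelled arrays, and at -0.14 to -0.13 relative to it in deletion-labelled ones. Both arrays numbered 3 deviated together: the deviations of wild type array 3 and deletion array 3 from their group means correlated at r = 0.61 across 5437 genes. The same value was -0.15 for the arrays numbered 1 and -0.03 for those numbered 2. Arrays of unlike number also deviated together, at 0.47 for wild type array 1 with deletion array 2 and 0.48 for wild type array 2 with deletion array 1.

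Markers of mating type were checked next. In every array the a-specific genes STE2, STE6, MFA1, MFA2, BAR1, AGA2 and ASG7 were above the background limit. Their summed normalized intensity was 44900.2 to 46281.8 in wild-type-labelled arrays and 47254.4 to 48007.4 in deletion-labelled ones. Of the 7, MFA1 rose (0.50), ASG7 on chromosome X fell (-0.71) and 5 did not pass, and the median difference was 0.00. Of the genes specific to α cells, MF(ALPHA)1 stood at 6.36 to 6.71 over the 6 arrays, on both sides of the limit, and MF(ALPHA)2, the second α-factor gene, at 6.70 to 7.66. SAG1, the α-agglutinin gene on chromosome X, was the exception, with 10.34 to 10.42 in wild-type-labelled arrays and 9.15 to 9.18 in deletion-labelled ones (difference -1.23 ± 0.04, adjusted p = 1.6e-05). STE3, the fourth α-specific marker, rose narrowly (0.45 ± 0.13, adjusted p = 0.048). MF(ALPHA)1 and MF(ALPHA)2 had positive differences of 0.12 and 0.36 that did not pass. The summed intensity of the 4 α-specific markers was 1578.8 to 1671.3 and 920.5 to 955.5 in these groups, where SAG1 was the brightest and the only one with a negative difference. Of the 4 markers of meiosis, IME1 and IME2 lie on chromosome X and fell (differences of -0.67 and -1.02), while SPO11 and NDT80 did not pass the test. For these 4 the summed intensity was 1947.5 to 2269.1 and 1309.6 to 1501.1. Markers of haploid cells (STE4, STE5, STE18, GPA1, FUS3 and RME1) summed to 13670.7 to 14135.7 and 13315.7 to 13647; of them GPA1 rose, and STE18 and RME1 fell (-0.70 and -0.20). The part that these markers play in the results below was not tested.

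Of the 44 mating genes 8 rose, 2 fell and 34 did not pass the test. The genes that rose were the targets AGA1, FUS1, PRM9, PRM4 and PRM8, the a-factor gene MFA1, the G protein gene GPA1 and the receptor gene STE3. The genes that fell were STE24 on chromosome X and AXL1. Over all genes 11.6% were called higher and 10.2% lower, and outside chromosome X 12.3% were called higher and 5.05% lower. With each array centred on the median of its 10928 probe sets in place of quantile normalization, 258 of all genes (4.73%) were called higher and 858 (15.7%) lower. Of the members 8 were then called higher and 3 lower. Only 5498 of those probe sets match 1 S. cerevisiae gene. The median difference of all genes was -0.08 with this centring, 0.01 with the values as deposited and 0.03 with quantile normalization. Among the mating genes the shares with quantile normalization were 18.2% higher and 4.55% lower. For 15 members, or 34.1%, all deletion-labelled arrays lay above all wild-type-labelled ones, where 25.1% of all genes did so. For 4 members, or 9.09%, they all lay below, against 16.2% of all genes. Outside chromosome X, 34.9% of the members lay above and 6.98% below in this way, against 26.6% and 11.3% of all genes there. With both arrays numbered 3 left out, 8 members were again called higher and 2 lower, with PRM1 in and STE3 out, where 6.46% of all genes were called higher and 8.7% lower.

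**Figure D1:**
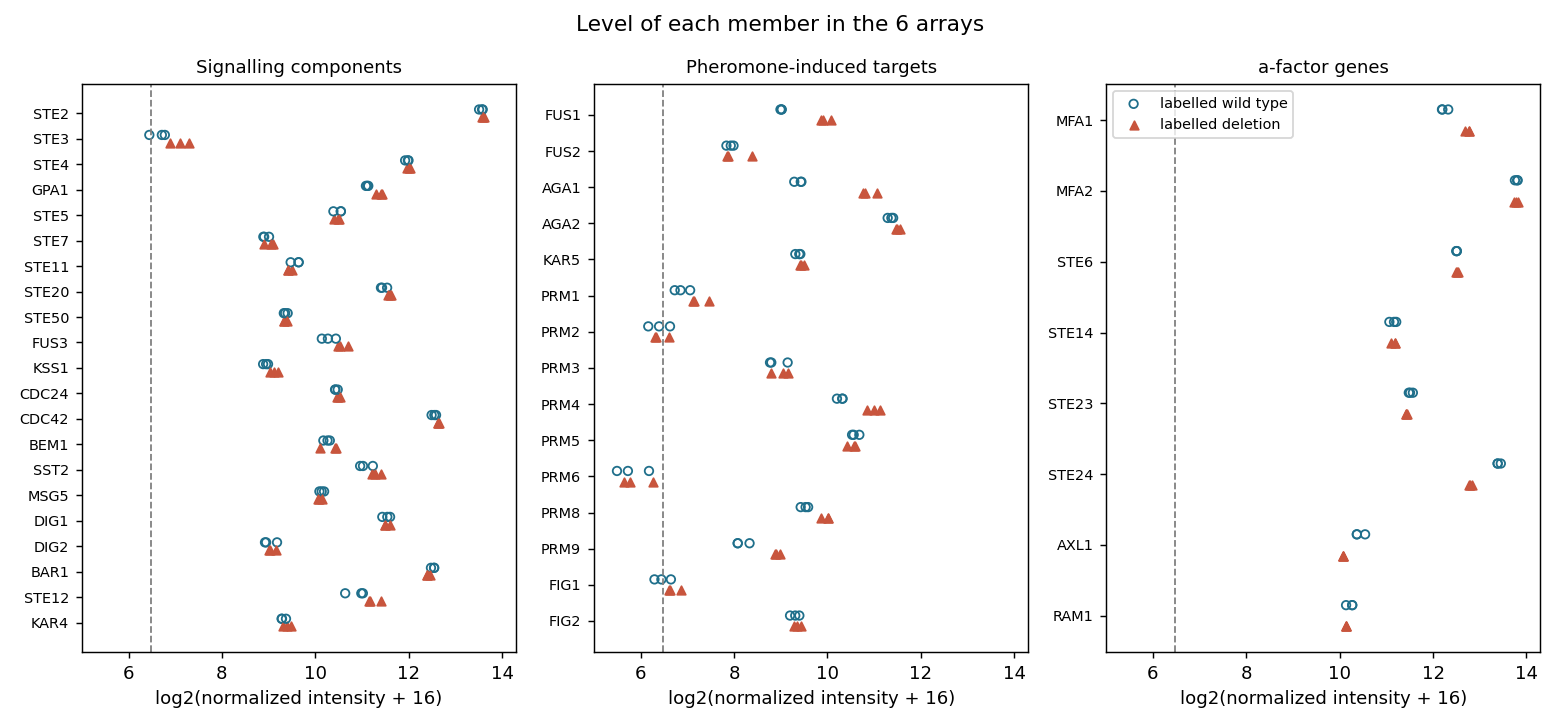
Level of each of the 44 mating genes, as log2(normalized intensity + 16), in the 3 arrays labelled wild type (open circles) and the 3 labelled deletion (triangles), with the background limit of 6.48 as a dashed line; levels of different genes come from different probes and are not to be ranked. The groups stand well apart for AGA1, FUS1, PRM4, PRM9, MFA1 and STE24, while most signalling components lie nearly on top of each other.

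The targets held the largest rises among the members. AGA1 (YNR044W, chromosome XIV) encodes the anchor subunit of a-agglutinin, by which an a cell sticks to its partner. It stood at 9.43, 9.29 and 9.44 in wild-type-labelled arrays and at 10.80, 10.76 and 11.07 in deletion-labelled ones. All 3 arrays of the second group lay more than 1 unit above all 3 of the other. The difference of 1.49 ± 0.09, or 2.81-fold, was the 12th largest rise among the 5449 genes, or the 12th largest fall with the labels exchanged (adjusted p = 5.6e-05). AGA2, which encodes the binding subunit of the same agglutinin, stood at 11.37, 11.29 and 11.41 against 11.47, 11.49 and 11.54. Its groups did not overlap either, but the difference of 0.15 ± 0.05 did not pass (adjusted p = 0.072). The 95% interval was 1.27 to 1.71 for AGA1 and 0.03 to 0.26 for AGA2; the difference between the subunits was not tested.

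FUS1 (YCL027W, chromosome III) encodes a membrane protein needed for cell fusion and is a common reporter of pathway activity. Its level was 9.01, 8.99 and 9.02 in wild-type-labelled arrays, a spread of 0.01 (SD), and 9.91, 9.86 and 10.09 in deletion-labelled ones. The groups were separated by more than the spread within either, with a difference of 0.94 ± 0.07, or 1.92-fold (adjusted p = 8.8e-05). The deposited intensities behind these levels were 492.94 to 513.74 and 919.42 to 1041.09. FUS1 ranked 26th among all rises, or among all falls with the labels exchanged. FUS2, which acts in fusion as well, showed no such separation: 7.99, 7.84 and 7.93 against 7.86, 8.39 and 7.85, where deletion array 2 alone was high (difference 0.12 ± 0.15, adjusted p = 0.61).

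The PRM genes were named as pheromone-regulated membrane proteins, and 8 of them are members here. Of these, 3 rose, 0 fell and 5 did not pass, where 11.6% of all genes rose and 10.2% fell. PRM9 (YAR031W, chromosome I) stood at 8.33, 8.08 and 8.08 in wild-type-labelled arrays and 8.89, 8.88 and 8.99 in deletion-labelled ones. That is a difference of 0.75 ± 0.08, or 1.69-fold (adjusted p = 6.5e-04). PRM8 (YGL053W, chromosome VII), a known relative of PRM9, went from 9.58, 9.53 and 9.43 to 9.85, 10.001 and 10.02 (0.44 ± 0.07, adjusted p = 0.0034). No array of either gene crossed into the range of the other group; whether the probe set of one also reads the other was not tested. PRM4 (YPL156C, chromosome XVI) stood at 10.32, 10.20 and 10.31 against 10.85, 10.999 and 11.13, a difference of 0.71 ± 0.08, or 1.64-fold (adjusted p = 8.4e-04). PRM9 and PRM4 ranked 51st and 55th among all rises (falls with the labels exchanged).

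PRM1, which acts in the fusion of plasma membranes, was low in all arrays, at 6.73, 6.85 and 7.06 against 7.15, 7.12 and 7.45. Its groups did not overlap, and the difference of 0.36 ± 0.12 missed the threshold (adjusted p = 0.070). PRM1 was called higher with both arrays numbered 3 left out (0.36, adjusted p = 0.028) and with those arrays as a term of the fit (adjusted p = 0.0028); over 18 alternatives its adjusted p ranged from 0.0028 to 0.26. The 4 other PRM members showed overlapping groups. PRM5, which is also known to respond to cell wall stress, was the target with a negative difference (-0.06 ± 0.07), and PRM3, which acts in nuclear fusion, differed by 0.09 ± 0.13. PRM2 and PRM6 had means below the background limit in both groups, so their differences of 0.01 and 0.10 are not readable as changes.

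The remaining targets did not pass the test. KAR5, needed for nuclear fusion, differed by 0.08 ± 0.05, and FIG2, a cell wall protein of mating cells, by 0.05 ± 0.07. FIG1, which serves calcium entry during mating, stood at 6.65, 6.44 and 6.29 against 6.60, 6.86 and 6.62, with wild type arrays 2 and 3 below the background limit (difference 0.23 ± 0.11, adjusted p = 0.17). In all, 5 of 15 targets rose, or 33.3%, and 0 fell, against 11.6% and 10.2% of all genes. At an unadjusted p under 0.05 in limma 7 were higher and 0 lower, where 21.3% of all genes were higher and 14.4% lower. Outside chromosome X, where all targets lie, 1162 of 5133 genes were higher and 485 lower at that p. All targets but PRM5 had a positive difference, as had 3257 of all 5449 genes. That includes PRM2 and PRM6, which lay below the background limit. The sign changed under at least 1 alternative for FUS2, KAR5, PRM2, PRM3, PRM6 and FIG2. The median of the targets was 0.15, where it was 0.03 over all genes. That median was 0.28 without wild type array 1, 0.22 without deletion array 1 and 0.23 without dim genes. With both arrays numbered 3 left out 6 targets were called higher. In the 5 that rose, deletion array 3 had the highest level of its group; without both arrays numbered 3 the differences were 1.42 for AGA1, 0.88 for FUS1, 0.67 for PRM9, 0.66 for PRM4 and 0.37 for PRM8, with adjusted p from 0.0020 to 0.035.

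**Figure D2:**
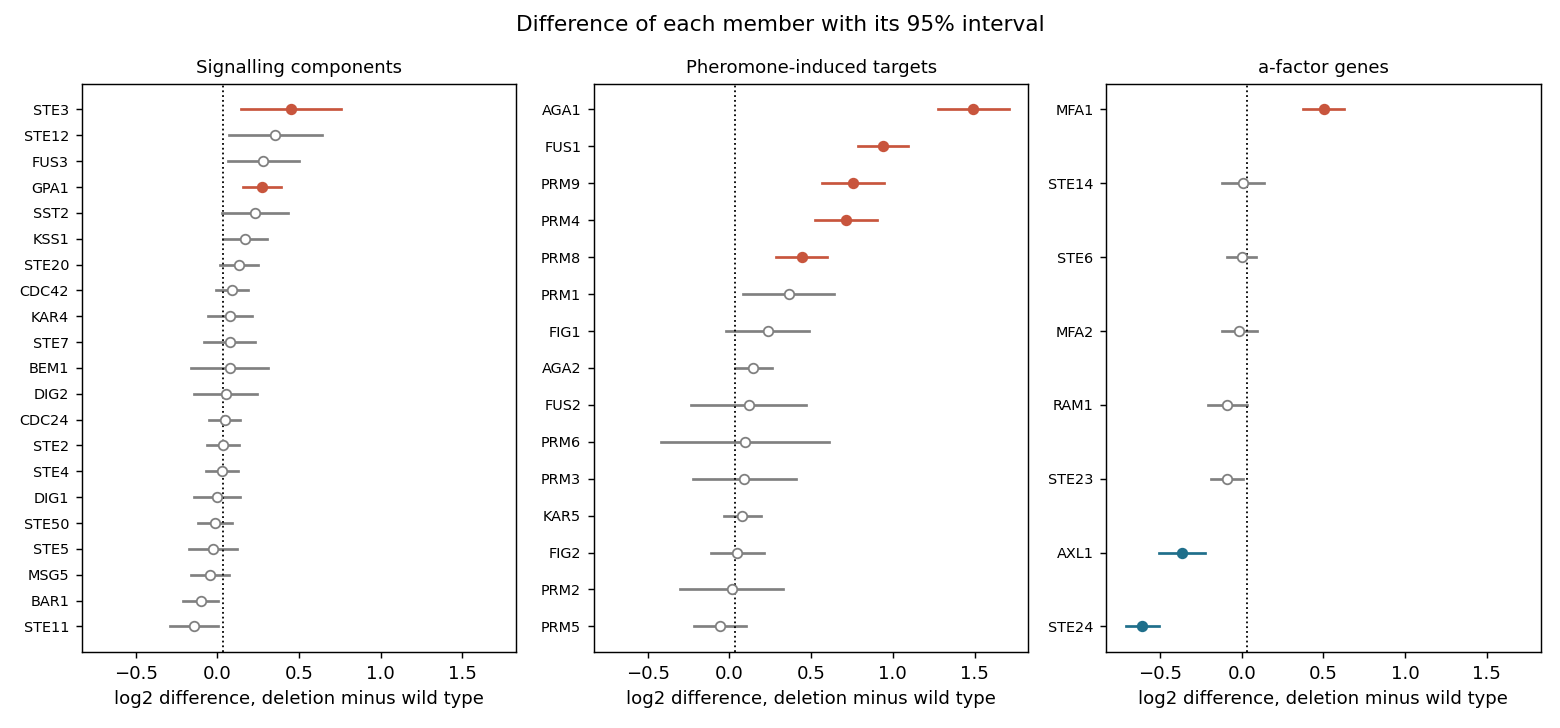
Difference of each mating gene (deletion minus wild type, log2) with its 95% interval, by class; filled points passed an adjusted p of 0.05 and the dotted line is the median of all genes, 0.03. The targets run from -0.06 for PRM5 to 1.49 for AGA1, while the signalling components end at 0.45 for STE3.

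Among the receptors and G protein subunits 2 of 4 rose, where 11.6% of all genes did. STE2, the α-factor receptor gene of a cells, stood at 13.57, 13.51 and 13.58 against 13.61, 13.56 and 13.59 (0.04 ± 0.04, 95% interval -0.07 to 0.14). GPA1 (YHR005C, chromosome VIII), the Gα subunit that holds the pathway off at rest and that pheromone is known to induce, stood at 11.13, 11.08 and 11.11 against 11.44, 11.40 and 11.31. The groups did not overlap, and the difference of 0.27 ± 0.05, or 1.21-fold, passed (adjusted p = 0.0081), except with median centring (0.13, adjusted p = 0.37). STE4, the Gβ gene, differed by 0.03 ± 0.04. STE18, the Gγ gene on chromosome X, is no member of the list and fell (-0.70, adjusted p = 2.4e-04), where the median was -0.79 over the 316 chromosome X genes. STE3, the a-factor receptor gene of α cells, stood near the background limit at 6.78, 6.44 and 6.71 against 6.88, 7.30 and 7.11. Its difference of 0.45 ± 0.13 passed narrowly (adjusted p = 0.048), and it was not called under 12 of 18 alternatives, with adjusted p from 0.0016 over all of them up to 0.175 without both arrays numbered 3.

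Of the 7 kinase cascade genes 0 were called by limma, while 3 had an unadjusted p under 0.05, all higher, against 21.3% of all genes. The PAK-type kinase gene STE20, the MAP kinase kinase kinase gene STE11, the MAP kinase kinase gene STE7, the scaffold gene STE5 and the adaptor gene STE50 differed by between -0.14 and 0.13. STE20 was higher in all deletion-labelled arrays than in any wild-type-labelled one (0.13 ± 0.05, adjusted p = 0.10), and STE11 was lower on average (-0.14 ± 0.06, adjusted p = 0.15). The MAP kinase gene FUS3 stood at 10.27, 10.14 and 10.44 against 10.53, 10.48 and 10.69, and KSS1, its relative with a further role in filamentous growth, at 8.99, 8.88 and 8.95 against 9.19, 9.11 and 9.03. Neither gene's groups overlapped, yet the differences of 0.28 ± 0.09 and 0.17 ± 0.06 did not pass (adjusted p = 0.072 and 0.074). With the arrays numbered 3 as a term FUS3 was called higher (adjusted p = 0.0089), and with both left out it was not (adjusted p = 0.051).

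Of the transcription factor genes neither was called. STE12 (YHR084W, chromosome VIII) stood at 10.98, 10.64 and 11.02 against 11.14, 11.17 and 11.40, with no overlap and a difference of 0.36 ± 0.12 (adjusted p = 0.077). Wild type array 2 was the low one. With the arrays numbered 3 as a term STE12 was called higher (adjusted p = 0.034), and with both left out it was not (adjusted p = 0.15); over 18 alternatives its adjusted p reached 0.18. KAR4, a factor for genes of nuclear fusion, differed by 0.08 ± 0.06. The genes of the Ste12 inhibitors, DIG1 and DIG2, had differences of 0.00 ± 0.06 and 0.05 ± 0.08.

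The genes that damp or end the response were not called either. SST2, which speeds the shut-off of Gpa1, stood at 11.23, 11.02 and 10.96 against 11.40, 11.28 and 11.22, where deletion array 3 fell just within the range of the other group (0.23 ± 0.08, adjusted p = 0.10). MSG5, a phosphatase of the MAP kinases, differed by -0.04 ± 0.05. BAR1, the secreted protease that destroys α-factor, was lower in all 3 deletion-labelled arrays, at 12.48, 12.54 and 12.55 against 12.39, 12.40 and 12.47 (-0.10 ± 0.04, adjusted p = 0.15). The polarity genes CDC42, CDC24 and BEM1, the last of which encodes a scaffold, differed by 0.09, 0.04 and 0.07, and none was called (adjusted p from 0.18 to 0.63).

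In all, 2 of the 21 signalling components rose and 0 fell, or 9.52% called higher. At an unadjusted p under 0.05 in limma 7 were higher and 0 lower, against 21.3% and 14.4% of all genes. Outside chromosome X, where all 21 lie, 1162 of 5133 genes were higher and 485 lower at that p. The median difference of the 21 was 0.07, where that of all genes was 0.03. With median centring it was -0.05, where that of all genes was -0.08. The signalling median thus lay 0.0405 above that of all genes in the main fit and 0.0365 above it with median centring. Without deletion array 3 the median of the 21 was 0.0366, and with the values as deposited it was 0.0464. The share of signalling components called higher was near the 11.6% of all genes, whereas the 33.3% of the targets lies above it. By groups that did not overlap, 33.3% of the signalling components and 46.7% of the targets were higher, against 25.1% of all genes. Both classes thus lay above the share of all genes on that measure. Since the members were chosen with results of these arrays known, these contrasts are a description and were not tested. Taken per array, the median deviation of the targets from each gene's own mean was -0.10, -0.14 and -0.18 in wild-type-labelled arrays and 0.08, 0.27 and 0.11 in deletion-labelled ones. For the signalling components it was -0.04, -0.06 and -0.00 against 0.04, 0.01 and 0.04. In each array the median of the targets lay farther from 0 than that of the signalling components, on the same side. Since each gene's deviations average 0 over the arrays, a positive difference by itself tends to place the groups on opposite sides. The values per array are therefore no evidence apart from the median differences. Of the 21 signalling genes, 8 are themselves known to be induced by pheromone (STE2, GPA1, STE12, FUS3, KAR4, SST2, MSG5 and BAR1). GPA1 alone of these was called, their median difference was 0.15, and that of the 13 others was 0.05. Counting the 8 with the targets gave 6 rises among 23 genes, or 26.1% against 11.6% of all genes, at a median of 0.15.

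**Figure D3:**
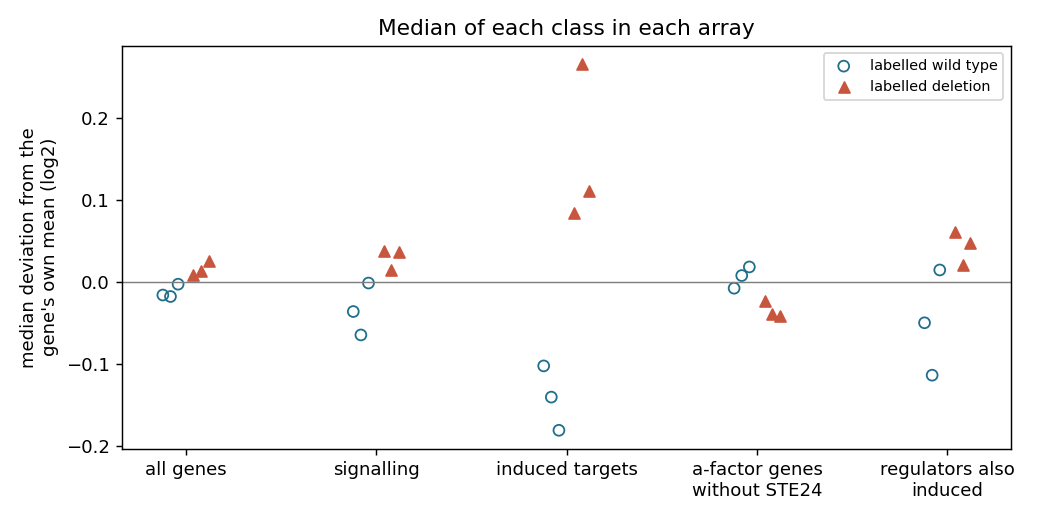
Median over the genes of each class of the deviation from the gene's own mean over 6 arrays (log2), with 1 point for each array labelled wild type (circles) or deletion (triangles), in order of array number. The 15 targets lie between -0.18 and -0.10 in the first group and between 0.08 and 0.27 in the second, while all genes together lie between -0.02 and 0.02.

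The a-factor genes showed rises and falls. The pheromone a-factor is encoded by 2 genes, MFA1 and MFA2, which are known to give nearly the same peptide. MFA1 (YDR461W, chromosome IV) stood at 12.33, 12.19 and 12.20 against 12.69, 12.77 and 12.77, a difference of 0.50 ± 0.05, or 1.42-fold (adjusted p = 6.5e-04). MFA2 (YNL145W, chromosome XIV) stood at 13.81, 13.75 and 13.80 against 13.77, 13.83 and 13.73 (-0.01 ± 0.04, 95% interval -0.12 to 0.09). The arrays of MFA1 fell into separate ranges and those of MFA2 did not; the 95% interval of MFA1 was 0.38 to 0.63, and the difference between the genes was not tested.

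The precursor is farnesylated, trimmed, methylated and trimmed again before export. RAM1, a subunit of the farnesyltransferase, and STE14, the methyltransferase, differed by -0.09 ± 0.05 and 0.01 ± 0.05. AXL1 (YPR122W, chromosome XVI), a protease that makes the last amino-terminal cut and also marks the axial budding site, stood at 10.37, 10.55 and 10.37 against 10.06, 10.06 and 10.06. The 3 deletion-labelled arrays were nearly equal and all below the others, and AXL1 fell by 0.36 ± 0.06 on the log2 scale, a 1.29-fold difference (adjusted p = 0.0049). Its relative STE23, known to act beside it, stood at 11.51, 11.48 and 11.57 against 11.42, 11.43 and 11.43, with no overlap but without passing (-0.09 ± 0.04, adjusted p = 0.16). STE6, the exporter of a-factor, stood at 12.50, 12.51 and 12.51 against 12.48, 12.53 and 12.50 (0.00 ± 0.04, 95% interval -0.09 to 0.09).

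STE24 (YJR117W, chromosome X), a protease that acts on the tail and then on the amino end of the farnesylated precursor, fell. It stood at 13.39, 13.45 and 13.38 in wild-type-labelled arrays and at 12.78, 12.83 and 12.78 in deletion-labelled ones, a difference of -0.61 ± 0.04, or 1.52-fold (adjusted p = 9.0e-05). Of the 316 chromosome X genes 295 fell and 0 rose. The difference of STE24 lay nearer to 0 than the median of that chromosome, -0.79. Without STE24, 1 of 7 a-factor genes rose and 1 fell, where 12.3% and 5.05% of all genes outside chromosome X did. The median of the class was then -0.01 in place of -0.05.

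**Figure D4:**
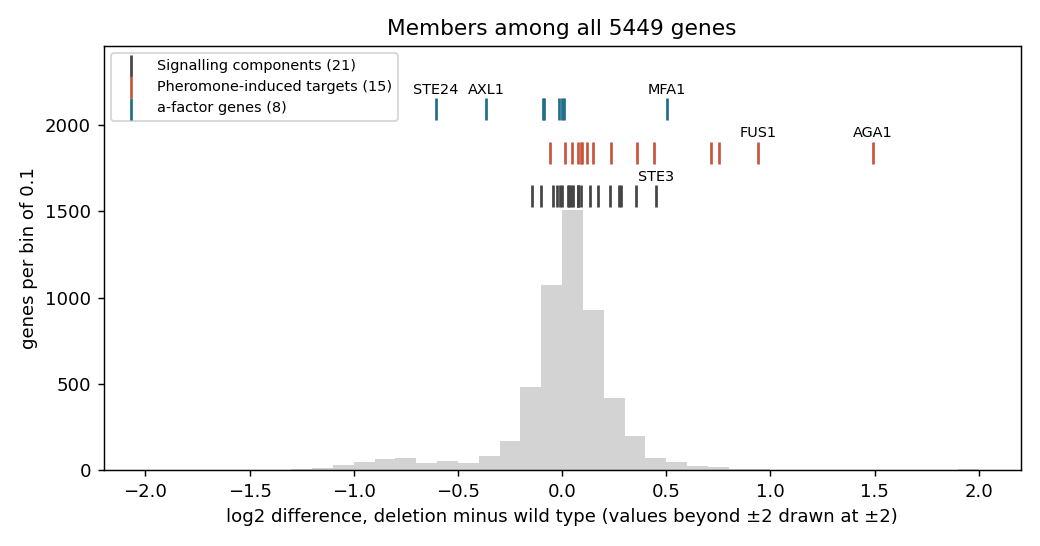
Differences of the 44 mating genes (ticks, by class) above the distribution over all 5449 genes (grey bars, genes per bin of 0.1 on the log2 scale). The tick of AGA1 at 1.49 and that of FUS1 at 0.94 lie in the thin right tail, and STE24 at -0.61 lies with the shoulder of falling genes.

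A further 41 genes of the pathway were taken from a second list, all of them measured. Of these 4 rose, 10 fell and 27 did not pass, where 11.6% of all genes rose and 10.2% fell. Of the 6 on chromosome X 5 fell, so that outside that chromosome 4 of 35 rose and 5 fell. Of all genes outside chromosome X, 12.3% rose and 5.05% fell. On both counts the share of the list that rose was near that of all genes, and the share that fell was larger. These contrasts were not tested. In signalling and polarity, AKR1, a palmitoyltransferase that also restrains the pathway, rose (0.31 ± 0.08, adjusted p = 0.032). RGA1, a GTPase-activating protein of Cdc42, and PTP2, a phosphatase of MAP kinases, fell (-0.21 and -0.27, adjusted p = 0.011 and 0.031). GIC2, an effector of Cdc42, fell further, from 12.31, 12.06 and 12.21 to 11.41, 11.59 and 11.83 (-0.58 ± 0.11, adjusted p = 0.012). Among the processing genes, STE13, a protease that trims α-factor, and RCE1, the other protease of farnesylated tails, rose (0.42 ± 0.05 and 0.24 ± 0.05, adjusted p = 0.0014 and 0.015).

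Among the other targets and fusion genes, PRM7 rose most, from 9.72, 9.17 and 9.66 to 11.10, 11.09 and 11.66 (1.77 ± 0.20, adjusted p = 9.9e-04). Its second probe set, the dimmer one, differed by 2.03 in the same direction. AFR1, which blunts receptor signalling and shapes the mating projection, and SCW10, a cell wall protein, fell (-0.23 and -0.25, adjusted p = 0.024 and 0.025). AKR1, RGA1, PTP2, RCE1, AFR1 and SCW10 each lost the call under at least 1 of 18 alternatives. On chromosome X, STE18, the cell cycle arrest gene FAR1, the a-specific ASG7, PRM10 and SAG1 fell (-0.70, -0.79, -0.71, -1.41 and -1.23), and PGU1 differed by 0.01 ± 0.07. The level of PGU1 was 6.83 to 7.05 over the arrays, near the background limit of 6.48, where a fall may not be readable. Set beside the chromosome's median of -0.79, STE18 and ASG7 lay nearer to 0, and PRM10 and SAG1 lay farther from it.

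**Figure D5:**
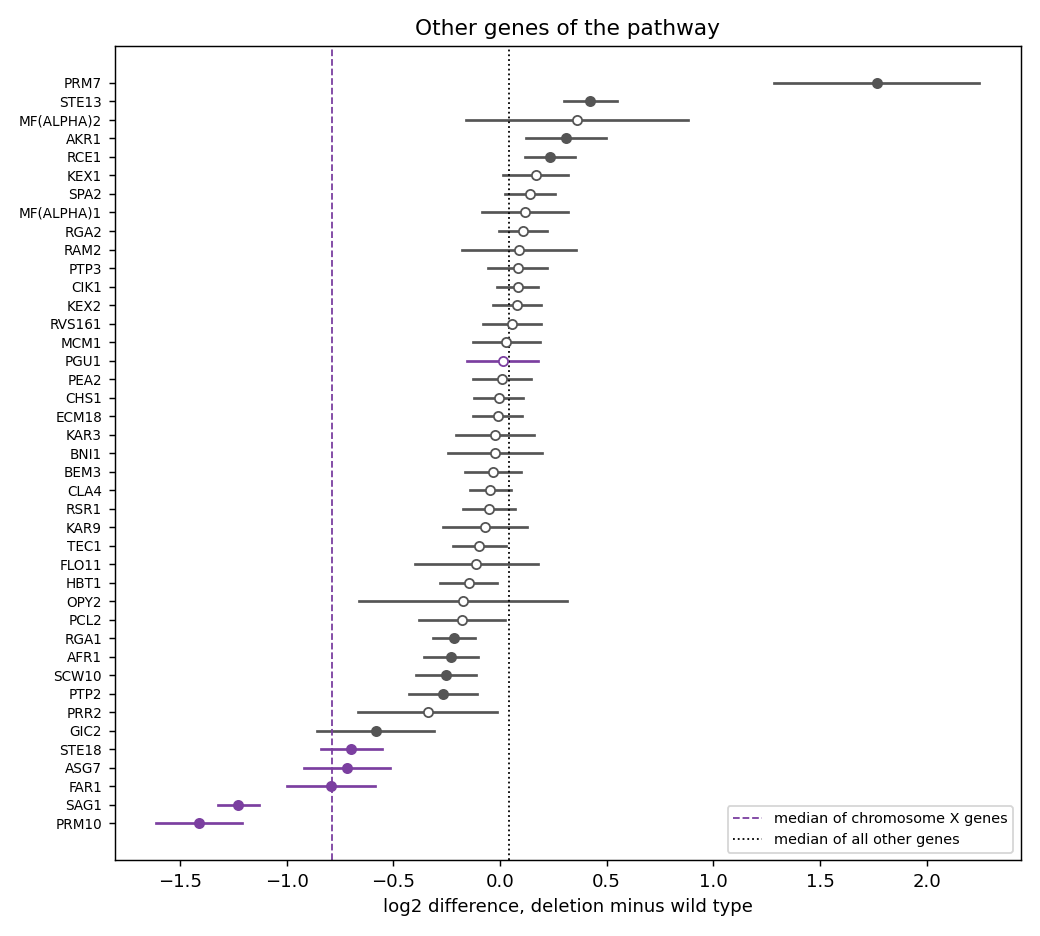
Difference of each of the 41 further pathway genes (deletion minus wild type, log2) with its 95% interval; purple marks chromosome X, filled points passed an adjusted p of 0.05, and the lines mark the medians of chromosome X genes (-0.79, dashed) and of all other genes (0.04, dotted). PRM7 at 1.77 stands apart on the right, and the 5 lowest points lie on chromosome X.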

How the data were processed

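The deposited values are linear intensities of 10928 probe sets; the sources used here do not state how the authors summarized, background-corrected or scaled them. The arrays' summed intensity ranged from 17790552 to 18431446, and their log2 medians differed by up to 0.24. Gene names came from the platform annotation, updated by gene identifier with the R64 table (5498 with 1 S. cerevisiae gene, 5449 genes; the brightest probe set where a gene had several). Intensities were quantile normalized, 16 was added before log2, and limma 3.58.1 in R 4.3.3 compared the groups with no other term. Of 30 missing values 0 fell on members. The background limit is the 95th percentile of 1746 fission yeast probe sets. The fit was run on simulated data with planted differences and independent errors between arrays. That run cannot show how the p-values behave where arrays deviate together, as some did here. Members and lists were chosen with earlier results of these data known, and p-values were adjusted over all genes. Every member is named, with the genes of the second list that passed the test and all mating-type markers; PGU1 is named beside them to complete a count, chosen after its value was seen. The promoter motif search was not run, since no sequences were used here. Alternatives covered scaling, pseudocount, exclusion of dim genes, the variance model, use of all probe sets, array number as a replicate block, the arrays numbered 3 (as a term or left out), removal of chromosome X genes, and leaving out each array. The number of arrays limits the precision.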

Additional observations from a re-analysis of the deposited data

How the results depend on the processing

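Of the 10 members called, 8 (AGA1, FUS1, PRM4, PRM8, PRM9, MFA1, AXL1 and STE24) passed under every alternative in which they were tested; GPA1 was lost with median centring and STE3 under 12 of 18. No called member changed sign. Of the 34 others, 6 passed under at least 1 alternative, and 21 changed sign at least once without being called. Median centring, which used the median of all 10928 probe sets of an array, moved the median of all genes by -0.12. Over all genes it gave 258 higher and 858 lower, where quantile normalization gave 630 and 554; there were 352 higher with both arrays numbered 3 left out, 225 lower without chromosome X genes, and 375 to 481 higher with each array left out. The signalling components called higher numbered 1 with the values as deposited, median centring, a pseudocount of 1, both arrays numbered 3 left out or no chromosome X genes, 4 with the array number as a replicate block, and 1 to 2 with each array left out. Those called lower numbered 1 with median centring (STE11) and 0 to 1 with each array left out (STE11 without wild type array 3). Without chromosome X genes 1 member, 1 a-factor gene and 5 other pathway genes were lower; with each array left out 2 to 4 other pathway genes were higher. The median of the signalling components was 0.0464 as deposited, -0.0469 with median centring and 0.0366 to 0.106 with each array left out. That of the targets was 0.23 without dim genes and 0.15 to 0.28 with each array left out. That of the a-factor genes was -0.086 as deposited, -0.179 with median centring, -0.0279 without both arrays numbered 3, and -0.0142 without STE24 or chromosome X genes. The causes were not tested. Same-numbered arrays did not all deviate together (r = -0.15, -0.03 and 0.61), so the numbers were not taken as pairs; with the replicate block 11 members were higher in place of 8, FUS3, SST2, STE12 and PRM1 being added and STE3 lost.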
